A study of Mus musculus with 6 samples.

Results

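The genes described here encode the eukaryotic translation initiation factors (eIFs) of mouse B cells, compared between cultures with and without bryostatin 1, a natural product that activates protein kinase C. They were taken by name: every protein-coding symbol that begins with Eif and a digit from 1 to 6 in the deposited count table, without the eIF2α kinases (Eif2ak1 to Eif2ak4), which are named after their substrate. This gave 53 of the 46316 genes in the table, of which 49 had enough counts to be tested. The cells were wild-type naive B cells isolated from spleen and cultured for 2 days with 500 ng/mL anti-CD40 antibody and 5 ng/mL IL-4, so that both groups received the same B cell activation and differed in the addition of 0.8 nM bryostatin 1. There were 3 IL-4 samples and 3 IL-4 + bryostatin 1 samples. Strain, sex and age of the mice are not given for these libraries. Whether the 3 samples of each group stem from different mice or only from different wells is not stated either, and the spread behind the p-values may therefore be technical. The study examined class switching to IgA and IgE under bryostatin 1, and these RNA libraries were made to find which genes the compound changed. The TGF-β condition of the study is not analysed here.

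Initiation factors bring the small ribosomal subunit, the initiator methionyl-tRNA and the mRNA together at the start codon. eIF2 carries the initiator tRNA as a GTP-bound ternary complex, and eIF2B recharges it with GTP. eIF1, eIF1A and eIF3 hold the small subunit open for scanning, and eIF5 triggers GTP hydrolysis once the start codon is found. The mRNA is brought in by eIF4F, made of the cap-binding protein eIF4E, the scaffold eIF4G and the RNA helicase eIF4A. The 4E-binding proteins occupy eIF4E and keep it from eIF4G until mTORC1 phosphorylates them. B cells enlarge and raise their protein synthesis when they are activated, and these factors are among the genes that proliferating lymphocytes express at high levels. The counts measure mRNA of these factors, not their protein, phosphorylation or activity.

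Library totals with 1 row per gene ran from 19959971 to 24896426 counts. A level is given below in CPM, the count of a gene divided by the scaled library total and set to a common total, and a difference as the log2 fold change of IL-4 + bryostatin 1 against IL-4 from edgeR's quasi-likelihood test, with its standard error (SE) and a p-value adjusted by Benjamini-Hochberg over 13863 genes. A gene was called higher or lower at an adjusted p under 0.05. The libraries carried the B cell markers Cd79a, Cd79b, Ms4a1, Pax5 and Cd22, with a summed level of 4723 to 4954 CPM in the IL-4 samples and 3687 to 3951 CPM with bryostatin 1 (4 of these 5 called lower). The 6 T cell markers summed to 0.731 to 1.09 CPM and 1.80 to 2.68 CPM, the 6 myeloid markers to 2.29 to 4.29 CPM and 3.05 to 4.02 CPM, the 4 NK cell markers to at most 0.907 CPM, and the 3 red blood cell markers to at most 0.323 CPM, with Alas2 at 0 in all libraries. The part of these shifts in the results below was not tested. In bulk RNA, fewer cells of a type and less RNA per cell cannot be told apart.

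Most initiation factor genes rose with bryostatin 1, and most of these rises were small. Of the 49 tested, 31 were called higher (63.3%), where 30.0% of all genes tested were, and 6 were called lower (12.2%), where 28.1% of all genes tested were. Thus 37 of the 49 were called in either direction, where 58.2% of all genes tested were, and 12 were not called. In 33 genes all 3 bryostatin 1 samples lay above all 3 IL-4 samples, and in 9 they lay below, against 32.8% and 30.6% of all genes tested (42 of 49 against 63.4% in either direction). The median log2 fold change of the 49 was 0.18, and that of all genes tested was 0.00086. The changes had a narrower spread: their standard deviation over the 49 genes was 0.30 in log2 fold change, against 0.80 over all genes tested. The median size of change, without regard to sign, differed less, at 0.21 over the 49 genes and 0.25 over all genes tested. With a change of at least 0.5 in log2 size, 2 of the 49 were called, Eif4ebp1 and Eif2s2. Of all genes tested, 23.7% passed both limits. Initiation factors are highly expressed, with a median level of 214 CPM in the IL-4 samples against 22.0 CPM for all genes tested, and the median SE over the 49 was 0.04. The part of this higher level in their narrower spread of changes was not tested. The levels of the 49 genes added up to 14447, 14900 and 15155 CPM without bryostatin 1 and to 16680, 17290 and 17215 CPM with it. Within each group replicate 1 had the lowest sum: it held the lowest of the 3 values in 31 of the 49 genes among the IL-4 samples and in 35 of the 49 among the bryostatin 1 samples, where it was lowest for 36.5% and 35.5% of all genes tested. Without IL-4 replicate 1 the median of the 49 was 0.16, and without bryostatin 1 replicate 1 it was 0.20.

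**Figure D1:**
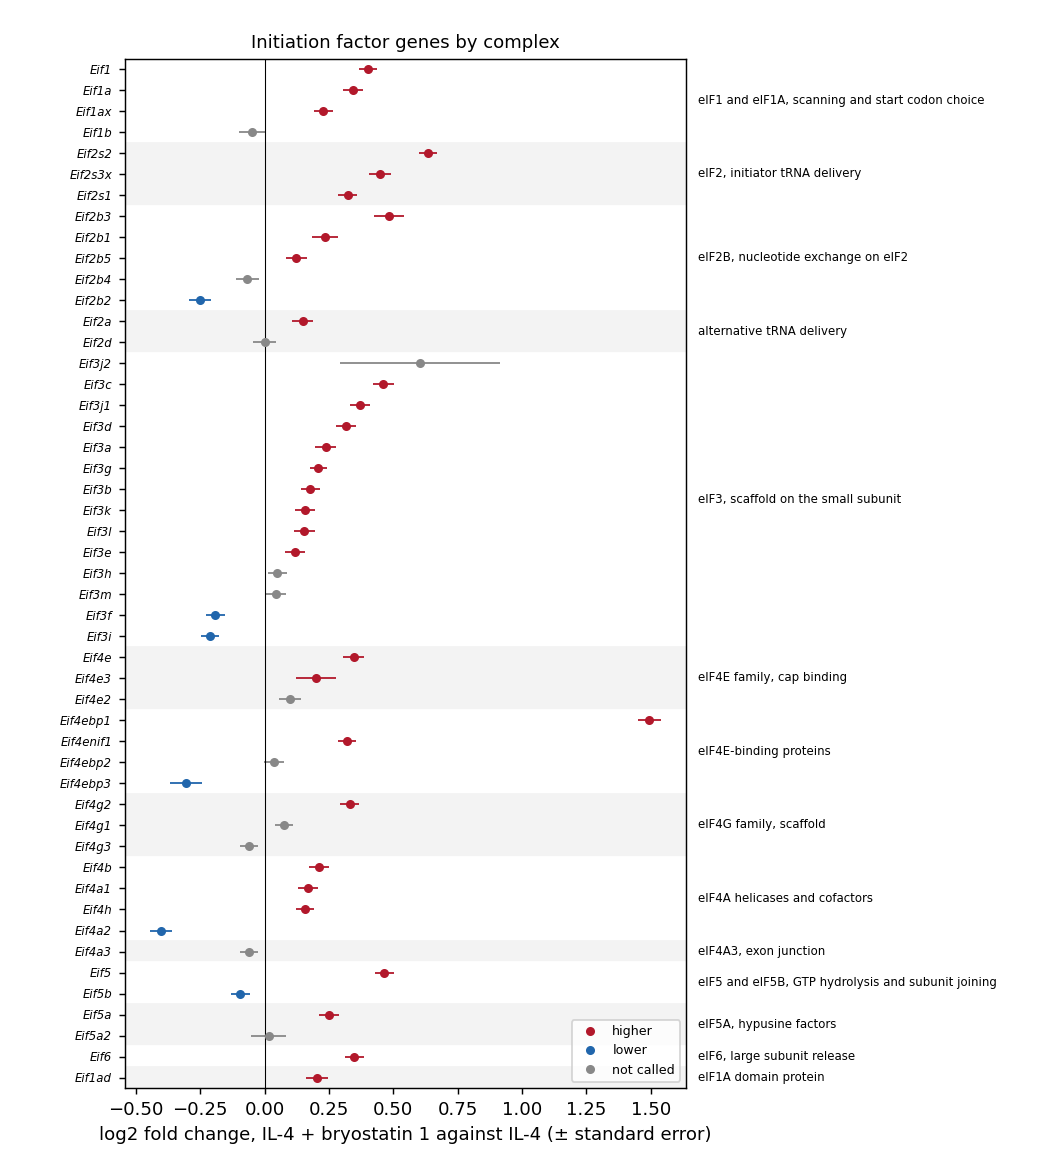
Log2 fold change of IL-4 + bryostatin 1 against IL-4 (horizontal axis) for the 49 tested initiation factor genes, grouped by complex. Points are edgeR estimates, bars are ± 1 standard error, and colour gives the call. The 31 genes called higher are spread over most complexes, Eif4ebp1 stands alone at 1.49, and the lowest value is Eif4a2 at -0.40.

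**Figure D2:**
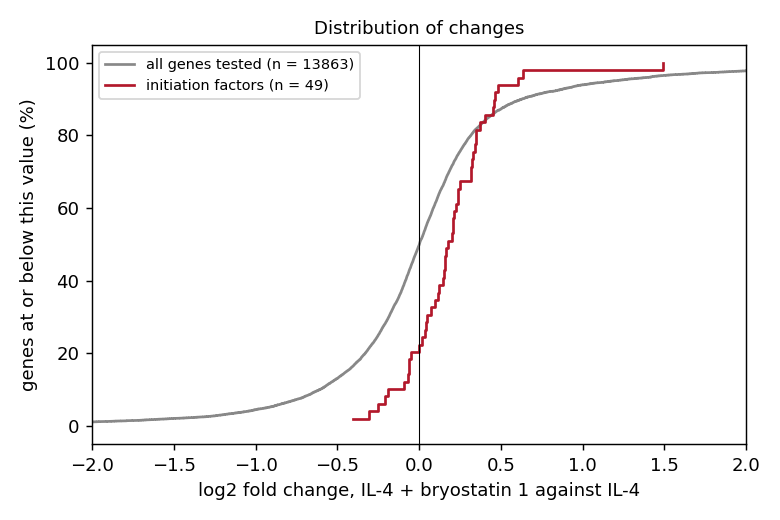
Share of genes (vertical axis, percent) at or below each log2 fold change (horizontal axis) for the 49 initiation factor genes and for all 13863 genes tested. The curve of the initiation factors is steeper, with a standard deviation of 0.30 against 0.80, and is shifted to the right, with a median of 0.18. The 465 genes (3.35% of all) outside a log2 fold change of ± 2 are not shown.

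Of the 4 genes for the start codon recognition factors eIF1 and eIF1A, 3 rose and 1 was not called. eIF1 guards against starting at a wrong codon, and its main gene Eif1 lay at 502, 501 and 513 CPM without bryostatin 1 and at 670.2, 660.4 and 672 CPM with it. All bryostatin 1 samples were above all IL-4 samples, with a log2 fold change of 0.40 (SE 0.03, adjusted p = 1.2e-08). The near-identical sister gene Eif1b was low and the groups overlapped (41.8 ± 2.06 CPM and 40.5 ± 1.43 CPM, SD, n = 3, adjusted p = 0.45). Within a library, the ratio of Eif1b to Eif1 counts was 0.0828 ± 0.00512 in the IL-4 samples and 0.0607 ± 0.00219 with bryostatin 1. eIF1A, which helps to stabilise the open scanning complex, is encoded by the autosomal Eif1a and the X-linked Eif1ax. Both rose, Eif1a with a log2 fold change of 0.34 (SE 0.04) and Eif1ax with one of 0.23 (SE 0.04). These copies resemble each other and no source used here says how reads shared between copies were counted, so the split between them is uncertain. Eif1ad, which encodes a protein with an eIF1A-like domain that acts in ribosome maturation in human cells, rose from 85.7 ± 3.06 to 98.9 ± 4.15 CPM (adjusted p = 0.00046). Exons of Eif1ad share 428 bases with the opposite-strand gene Banf1, which was also called higher (0.14).

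All 3 tested subunits of eIF2 rose. Eif2s2, the β subunit that contacts eIF5 and the initiator tRNA, lay at 289.9, 289 and 298 CPM without bryostatin 1 and at 439, 464 and 459 CPM with it. The groups were far apart and the log2 fold change was 0.63 (SE 0.04, adjusted p = 4.3e-11), the second largest among the called initiation factor genes. The GTP-binding γ subunit gene Eif2s3x followed with 0.45 (SE 0.04), from 203, 222 and 218 CPM to 279.6, 291 and 308 CPM. The α subunit gene Eif2s1 encodes the protein that the stress kinases phosphorylate, and it lay at 246, 257 and 265 CPM and then at 309, 332 and 320.3 CPM (0.32, SE 0.04). No tested eIF2 subunit gene had overlapping groups. The Y-linked copy Eif2s3y had 0 counts in all 6 libraries, where a count of 0 allows up to 3 counts in a library, or 0.118 to 0.150 CPM.

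The 5 subunits of eIF2B, the exchange factor that reloads eIF2 with GTP, did not move together. The catalytic core pairs the γ subunit (Eif2b3) with the ε subunit (Eif2b5), and the α, β and δ subunits (Eif2b1, Eif2b2 and Eif2b4) form the regulatory part that reads phosphorylated eIF2α. Eif2b3 lay at 24.98, 24.997 and 26.4 CPM without bryostatin 1 and at 34.1, 37.4 and 35.5 CPM with it. With no overlap and a log2 fold change of 0.48 (SE 0.06, adjusted p = 1.2e-06), it was the eIF2B subunit with the largest change. Eif2b2 went the other way, from 83.3, 77.8 and 81.1 CPM to 65.8, 70.8 and 67.3 CPM, also with no overlap (-0.25, SE 0.04, adjusted p = 7.4e-05). Eif2b1 rose (0.23, SE 0.05), and Eif2b4 was not called (46.3 ± 0.774 and 44.2 ± 0.464 CPM, adjusted p = 0.21). Eif2b5 was called higher at 0.12 (SE 0.04, adjusted p = 0.015), a call that was lost without IL-4 replicate 1 (0.09, adjusted p = 0.071) or without bryostatin 1 replicate 2 (0.10, adjusted p = 0.074). Thus within this 1 complex the fitted fold ran from 0.841 for Eif2b2 to 1.40 for Eif2b3.

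A pair of factors can deliver tRNA to the small subunit without eIF2. Eif2a lay at 109, 109 and 119 CPM without bryostatin 1 and at 122, 127 and 124 CPM with it, with no overlap (0.15, SE 0.04, adjusted p = 0.0045). Eif2d had the same level in both groups (55.7 ± 2.16 and 55.8 ± 1.30 CPM), and the sign of its fitted difference of 0.00 depended on the scaling.

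eIF3, the largest initiation factor, is a scaffold on the small subunit that connects it to eIF4G. Of its 14 tested genes 9 were called higher, 2 lower and 3 were not called, with a median log2 fold change of 0.17. The largest change among the called genes was that of Eif3c, an octamer subunit that contacts eIF1 and eIF5. It lay at 581, 618 and 639 CPM without bryostatin 1 and at 820.4, 850.3 and 859.8 CPM with it. The groups did not overlap, and the log2 fold change was 0.46 (SE 0.04, adjusted p = 1.8e-08). Eif3d, whose product can bind the cap of some mRNAs, rose from 268 ± 11.6 to 333 ± 8.43 CPM (0.32, SE 0.04). The largest subunit, encoded by Eif3a, lay at 667, 705 and 728 CPM and then at 789, 829.7 and 858 CPM (0.24, SE 0.04, adjusted p = 9.3e-05). Eif3b, Eif3g, Eif3k, Eif3l and Eif3e rose by 0.12 to 0.21. The call of Eif3e (0.12, adjusted p = 0.015) was lost without IL-4 replicate 1 (0.08, adjusted p = 0.063) or without bryostatin 1 replicate 2 (0.10, adjusted p = 0.079).

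A pair of eIF3 genes fell. Eif3f, which encodes an octamer subunit with an MPN domain, lay at 646, 679 and 668 CPM without bryostatin 1 and at 569, 592 and 585 CPM with it. Its groups did not overlap (-0.19, SE 0.04, adjusted p = 0.00019). Eif3i, the WD-repeat subunit that joins eIF3b and eIF3g in a module of its own, lay at 383, 376 and 363 CPM and then at 314, 325 and 329.9 CPM. It too had no overlap (-0.21, SE 0.04, adjusted p = 6.6e-05). Its partners in that module rose, Eif3b with 0.18 (SE 0.04) and Eif3g with 0.21 (SE 0.03). The product of Eif3h forms an MPN-domain pair with that of Eif3f, and Eif3h was not called (424 ± 17.5 and 439 ± 4.11 CPM, adjusted p = 0.28), and neither was Eif3m, the octamer partner of eIF3f (226 ± 10.2 and 233 ± 5.77 CPM, adjusted p = 0.36). In the octamer as a whole 5 of 8 genes were higher, 1 lower and 2 not called. Relative to the IL-4 mean the bryostatin 1 samples thus stood at 138 ± 3.35% for Eif3c, 103 ± 0.969% for Eif3h and 86.4 ± 2.23% for Eif3i (SD, n = 3).

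**Figure D3:**
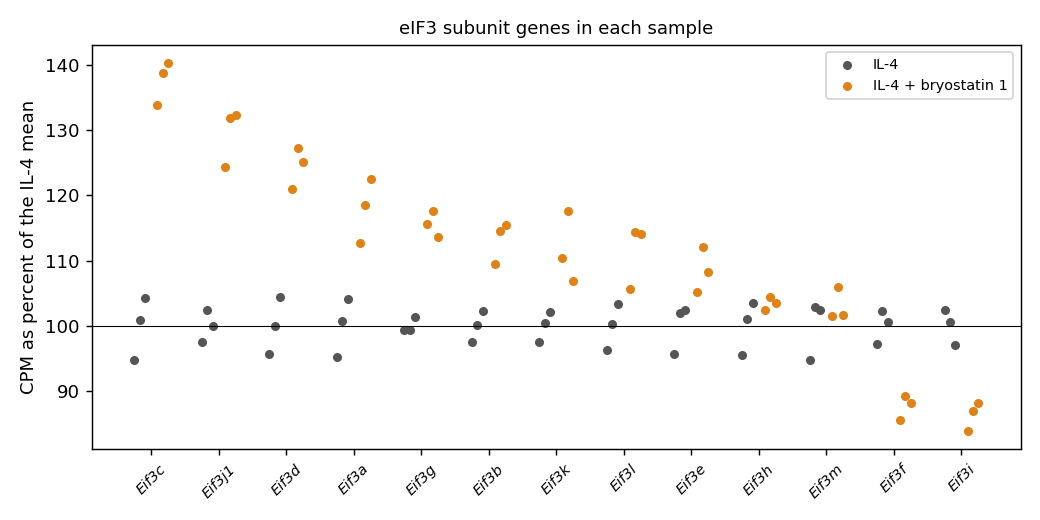
CPM of each eIF3 subunit gene in each sample, as a percent of that gene's mean in the IL-4 samples (vertical axis; grey, IL-4; orange, IL-4 + bryostatin 1; 3 samples each). Genes are ordered from Eif3c, with a bryostatin 1 mean of 138%, to Eif3i, with 86.4%; the orange points of Eif3f and Eif3i lie below all their grey points, and those of Eif3h and Eif3m overlap them. Eif3j2 is left out.

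The loosely bound subunit eIF3j is encoded by Eif3j1 and the near copy Eif3j2. Eif3j1 rose from 91.4, 95.9 and 93.7 CPM to 117, 123 and 124 CPM (0.37, SE 0.04, adjusted p = 2.3e-07), with no overlap. Eif3j2 had between 42 and 262 counts per library, and its values of 5.84, 1.99 and 6.44 CPM without bryostatin 1 and 10.3, 7.26 and 3.88 CPM with it overlapped. Its fitted difference of 0.60 followed those of Eif4ebp1 and Eif2s2 in size but was not called (SE 0.31, adjusted p = 0.11). It was called in 3 of 16 alternative settings, among them those without IL-4 replicate 3 (0.89, adjusted p = 0.029) or without bryostatin 1 replicate 3 (0.90, adjusted p = 0.013). The difference shrank to 0.23 without IL-4 replicate 2 (adjusted p = 0.50) and to 0.21 without bryostatin 1 replicate 1 (adjusted p = 0.58). Reads that fit both copies make the Eif3j2 values uncertain.

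In the cap-binding arm, the largest change among all initiation factor genes was that of Eif4ebp1. It encodes 4E-BP1, the repressor that binds eIF4E when mTORC1 is inactive. Its level was 42.8, 39.8 and 41.4 CPM without bryostatin 1 and 117, 121 and 112 CPM with it. The lowest bryostatin 1 sample was thus far above the highest IL-4 sample, and the fold was 2.82 (log2 fold change 1.49, SE 0.04, adjusted p = 6.2e-15). Neither of its relatives was called higher. Eif4ebp2, which encodes the closely related 4E-BP2, lay at 110.3, 115 and 109 CPM and then at 112, 115 and 116 CPM, with overlapping groups and a log2 fold change of 0.04 (SE 0.04, adjusted p = 0.42). Eif4ebp3 fell from 25.3, 25.6 and 24.1 CPM to 20.9, 19.7 and 20.04 CPM (-0.30, SE 0.06, adjusted p = 0.00043). Counts of Eif4ebp1 for each count of Eif4ebp2 went from 0.388, 0.346 and 0.380 in the IL-4 samples to 1.04, 1.05 and 0.967 with bryostatin 1. This ratio does not depend on how libraries are scaled, its groups did not overlap, and the exact two-sided permutation test of 3 against 3 gave p = 0.1, the smallest it can give. Levels per kilobase of transcript, which allow genes to be compared, used lengths of 1997 bases for Eif4ebp1 and 1422 for Eif4ebp2. Eif4ebp1 went from 20.7 to 58.3 CPM per kb, while Eif4ebp2 stood at 78.4 and 80.4 CPM per kb. By this measure Eif4ebp1 was the lower of the pair in both groups. With bryostatin 1 that order rests on the lengths, since the mean levels before division were 117 and 114 CPM.

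The target of these repressors also rose. Eif4e, the cap-binding protein itself, lay at 147, 159.9 and 164 CPM without bryostatin 1 and at 196, 203 and 201 CPM with it, with no overlap (0.35, SE 0.04, adjusted p = 8.8e-07). Eif4ebp1 and Eif4ebp2 counts together, divided by Eif4e counts, went from 1.04, 0.968 and 0.916 to 1.17, 1.16 and 1.13. These groups did not overlap, with a log2 difference of 0.25 and an exact permutation p of 0.1, the smallest possible. The counts in this ratio were not divided by transcript length, and Eif4ebp3, which fell, was left out. Per kilobase, Eif4ebp3 went from 33.6 to 27.2 CPM per kb, above Eif4ebp1 in the IL-4 samples (20.7), and Eif4e from 31.5 to 40.1. The ratio therefore gives no direction for the repressors together against Eif4e. Eif4enif1, which encodes the 4E transporter that takes eIF4E into the nucleus and into processing bodies, rose from 182 ± 4.66 to 227 ± 2.42 CPM (0.32, SE 0.03, adjusted p = 3.4e-07). Eif4e2, the 4EHP homologue that binds the cap without eIF4G, had bryostatin 1 samples above the IL-4 samples by little (135 ± 8.54 and 145 ± 2.76 CPM) and was not called (0.10, adjusted p = 0.057). It was called in 6 of 16 alternative settings, among them the one without IL-4 replicate 3 (0.12, adjusted p = 0.032). Without IL-4 replicate 1 the difference was 0.046 (adjusted p = 0.32). Eif4e3, a low-level homologue, was called higher (13.8 ± 0.264 and 15.8 ± 1.27 CPM, 0.20, adjusted p = 0.032). This call was lost in 5 of 16 alternative settings. Among these were those without IL-4 replicate 1 (0.19, adjusted p = 0.065), 2 (0.21, adjusted p = 0.061) or 3 (0.18, adjusted p = 0.095) or bryostatin 1 replicate 3 (0.14, adjusted p = 0.17). The oocyte homologue gene Eif4e1b had 0 counts in all libraries.

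**Figure D4:**
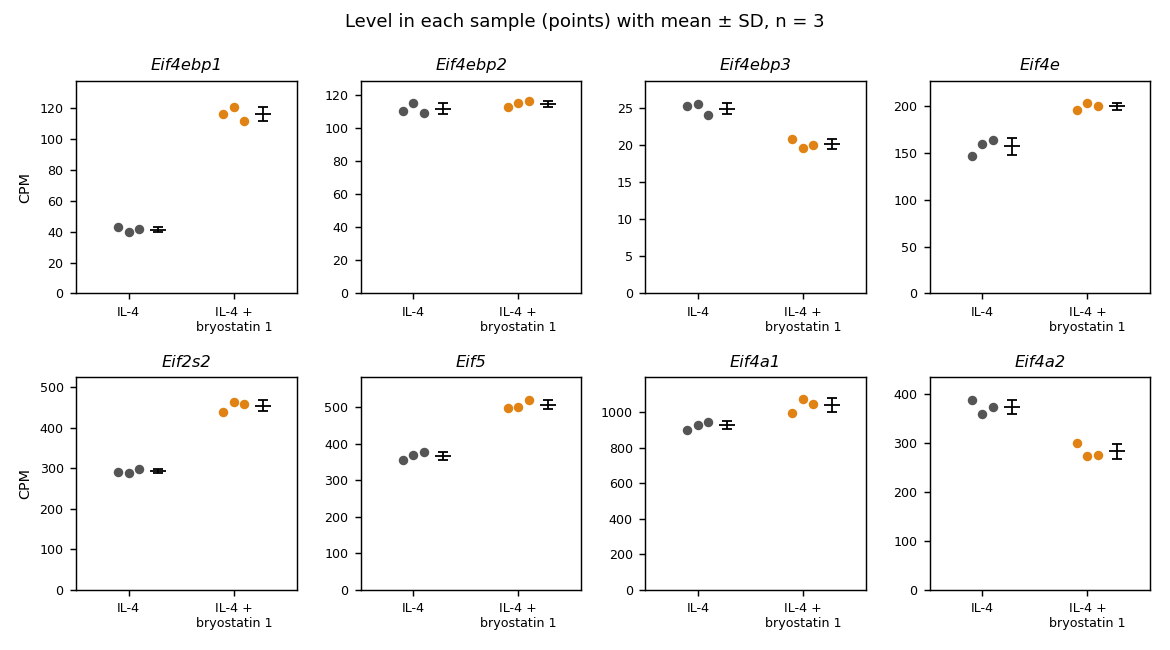
Level (vertical axis, CPM, from 0) of 8 initiation factor genes in each of the 3 IL-4 samples and the 3 IL-4 + bryostatin 1 samples. Coloured points are samples, and the black mark beside them is the mean ± SD. Eif4ebp1 goes from 41.3 ± 1.498 to 117 ± 4.54 CPM while Eif4ebp2 overlaps and Eif4ebp3 falls, and Eif4a1 and Eif4a2 move in opposite directions.

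The eIF4A helicases that unwind the mRNA leader moved apart. Eif4a1, the predominant helicase of proliferating cells, lay at 901, 930.4 and 945 CPM without bryostatin 1 and at 996, 1072 and 1049 CPM with it. The groups did not overlap, and the log2 fold change was 0.17 (SE 0.04, adjusted p = 0.0012). Eif4a2, its close paralog, which is also known as a partner of the CCR4-NOT deadenylase complex, lay at 388, 359 and 375 CPM and then at 300.3, 274 and 275 CPM. This was the largest fall among the initiation factor genes (-0.40, SE 0.04, adjusted p = 2e-07). Counts of Eif4a2 for each count of Eif4a1 went from 0.431, 0.386 and 0.396 to 0.301, 0.255 and 0.262, without overlap (log2 difference -0.57, exact permutation p = 0.1, the smallest possible). The helicase cofactors both rose, Eif4b from 766 ± 33.8 to 886 ± 16.004 CPM (0.21, SE 0.04) and Eif4h from 418 ± 6.84 to 465 ± 12.2 CPM (0.16, SE 0.04). The exons of Eif4a2 share 194 bases with the opposite-strand gene Rfc4, which was higher with bryostatin 1 (95.9 and 108 CPM), and they also overlap the small nucleolar RNA genes Snora81 (log2 fold change -0.58) and Snord2 (-0.54) on the same strand, which were both called lower, as Eif4a2 was, from 6.52 and 4.53 CPM in the IL-4 samples. No source used here gives the strand setting of the counting, and the part of these neighbours in the Eif4a2 counts was not tested. Eif4a3, a relative that sits in the exon junction complex and is not a subunit of eIF4F, lay at 224, 228 and 225 CPM and then at 213, 223 and 213 CPM and was not called (-0.06, adjusted p = 0.14). Its copy Eif4a3l1 had at most 3 counts in a library and was not tested.

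Among the eIF4G scaffolds 1 of 3 genes was called. Eif4g2, also called DAP5, lacks the eIF4E-binding region and serves cap-independent starts. It lay at 1240, 1282 and 1291 CPM without bryostatin 1 and at 1559, 1603 and 1632 CPM with it. Its groups did not overlap (0.33, SE 0.04, adjusted p = 5.9e-07). The canonical scaffold genes were not called: Eif4g1 stood at 681 ± 11.4 and 717 ± 14.6 CPM (0.07, adjusted p = 0.081), and Eif4g3 at 168 ± 3.94 and 161 ± 3.23 CPM (-0.06, adjusted p = 0.15). The ratio of Eif4g3 to Eif4g1 counts was 0.247 ± 0.00993 in the IL-4 samples and 0.224 ± 0.0038 with bryostatin 1, without overlap (exact permutation p = 0.1, the smallest possible).

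The E-box CACGTG, the element bound by MYC, MAX and USF proteins, is a known feature of the promoters of eIF4F genes. It was looked for in the RefSeq window from 250 bases before to 50 bases after the gene start (build GRCm38.p6), which 38 of the 49 tested members have. The element reads the same on both strands. It was found in 10 of the 38 (26.3%), against 8.09% of all 27025 genes with a window and 11.9% of the 9877 of these genes that were tested. The 10 genes were Eif1b, Eif3a, Eif3f, Eif3k, Eif4a1, Eif4e, Eif4g1, Eif4h, Eif5a and Eif5a2, of which 6 were called higher, 1 lower and 3 were not called, while 24 of all 38 members with a window were called higher. A match describes the letters and not a bound site, and Eif4ebp1 is among the 11 genes with no window. The upstream stretches below, 5′ to 3′ on the strand of the gene and with the E-box in capitals, show the element in a cap-binding, helicase, helicase cofactor and hypusine factor gene and in an eIF3 gene that rose and one that fell. Eif4e (chr3:138527018-138527267, plus strand) carries it at 228 and at 64 bases before the start.
Eif4e: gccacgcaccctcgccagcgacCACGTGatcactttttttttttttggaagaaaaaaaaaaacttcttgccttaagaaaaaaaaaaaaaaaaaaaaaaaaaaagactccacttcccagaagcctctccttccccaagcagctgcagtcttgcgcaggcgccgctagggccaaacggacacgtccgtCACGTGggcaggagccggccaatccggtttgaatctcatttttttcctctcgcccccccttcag
Eif4a1 (chr11:69672587-69672632, minus strand): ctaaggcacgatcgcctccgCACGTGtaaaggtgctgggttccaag
Eif4h (chr5:134639480-134639525, minus strand): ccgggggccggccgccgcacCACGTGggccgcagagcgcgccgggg
Eif5a (chr11:69921435-69921480, minus strand): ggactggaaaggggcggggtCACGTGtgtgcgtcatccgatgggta
Eif3k (chr7:28981907-28981952, minus strand): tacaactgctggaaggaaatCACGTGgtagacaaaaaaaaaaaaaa
Eif3f (chr7:108934327-108934372, plus strand): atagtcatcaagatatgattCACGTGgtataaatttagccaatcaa

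Of the other motifs searched in the same windows on both strands, the ETS element CCGGAAGT was in 7 of the 38 (18.4%), against 9.497% of the tested genes with a window. The NRF1 element was in 1 (2.63% against 2.43%). The composite ATF4 and C/EBP element TGATGNAAN was in 1 gene, Eif2s3x (2.63% against 2.79%), and the YY1 element AAGATGGCG in 1, Eif4e (2.63% against 3.73%).

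At the last steps of initiation the factors differed. Eif5, the GTPase-activating protein of eIF2, lay at 354, 371 and 377 CPM without bryostatin 1 and at 498, 502 and 521 CPM with it. It had no overlap and one of the larger rises (0.46, SE 0.04, adjusted p = 4.6e-09). Eif5b, the GTPase that joins the subunits, lay at 266, 275 and 291 CPM and then at 258, 265 and 257 CPM. It was called lower (-0.09, SE 0.04, adjusted p = 0.042), a call that was lost in 9 of 16 alternative settings. Among these were scaling by total counts, both other filters on low counts and summed rows. The call was also lost without IL-4 replicate 2 (-0.11, adjusted p = 0.055) or 3 (-0.07, adjusted p = 0.16). The same held without bryostatin 1 replicate 1 (-0.09, adjusted p = 0.093), 2 (-0.11, adjusted p = 0.057) or 3 (-0.08, adjusted p = 0.14). Eif6, which keeps the large subunit from joining until it is released, lay at 123, 122 and 126 CPM and then at 159, 158 and 156 CPM, with no overlap (0.35, SE 0.04, adjusted p = 1.3e-07). Eif5a encodes the hypusine-carrying factor that also acts in elongation and termination, and it had the highest level per length of all 49 genes, 953 CPM per kb in the IL-4 samples. It lay at 1333, 1374 and 1402 CPM and then at 1592, 1671 and 1623 CPM, with no overlap (0.25, SE 0.04, adjusted p = 2e-05). Its paralog Eif5a2 had 15.8 ± 0.445 and 16.04 ± 0.479 CPM, with overlapping groups (adjusted p = 0.86).

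Some members of the table bear limits. Exons of 7 tested members overlap those of an opposite-strand gene that was tested: besides Eif1ad and Eif4a2 these are Eif2a with Serp1 (72 bases, log2 fold change of the neighbour -0.16), Eif2b4 with Snx17 (204 bases, -0.23), Eif2d with Rassf5 (78 bases, -0.43), Eif3j1 with Spg11 (1107 bases, -0.12) and Eif5b with Rev1 (1643 bases, -0.22). All 5 of these neighbours were called lower, which is the direction of Eif5b and not that of Eif2a and Eif3j1, and their part in the members' counts was not tested. Rows for different transcripts of a gene held nearly the same counts, except for Eif2b1, Eif4a2, Eif4e2 and Eif4g3, in which the lowest row had 80.7%, 90.8%, 85.7% and 12.3% of the mean of the highest. The 53 symbols also include Eif1-ps3, with 0 counts in all libraries.

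Genes that act on or beside the initiation factors were taken from lists of 57 genes, of which 56 were tested. Of these, 26 were called higher and 15 lower, where 30.0% and 28.1% of all genes tested were. Genes of the elongation and termination list were likewise called higher more often than lower. Of 9 tested genes 6 were called higher and 0 lower, with a median log2 fold change of 0.15. This list is mixed, since it also holds Eef1e1 and the kinase gene Eef2k, which was not called (-0.19, adjusted p = 0.060). The release factors had large changes, Etf1 (eRF1) from 360.3, 376 and 384 CPM to 506, 522 and 532 CPM (0.48, SE 0.04, adjusted p = 3.6e-09) and its GTPase partner Gspt1 (eRF3a) from 268, 288 and 289 CPM to 393, 414 and 409 CPM (0.52, SE 0.04, adjusted p = 1.8e-09). Eef1e1, a component of the multi-tRNA synthetase complex, rose from 49.6 ± 2.90 to 72.8 ± 3.76 CPM, and Eef2, the translocase, by 0.18. The hypusine and polyamine list holds enzymes of the eIF5A modification and of polyamine synthesis, and also regulators of ornithine decarboxylase. In this list 7 of 9 genes were higher and 1 was lower (median 0.19). The higher ones included Sms (spermine synthase, 0.44), Dohh (deoxyhypusine hydroxylase, 0.32), Odc1 (ornithine decarboxylase, 0.29) and Srm (spermidine synthase, 0.25). Among the poly(A)-binding proteins and their partners 3 of 5 were higher and 1 lower. Paip2, an inhibitor of poly(A)-binding protein, rose from 93.7, 98.9 and 107 CPM to 145, 153 and 151 CPM (0.58, SE 0.04, adjusted p = 3.6e-09), the activating partner Paip1 by 0.25 and Pabpc4 by 0.18, and Paip2b fell (-0.23).

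Of 15 genes of mTORC1 and MNK signalling, which sets the phosphorylation of 4E-BP1 and eIF4E, 3 were called higher and 7 lower (median -0.10). Of all genes tested, 30.0% were called higher and 28.1% lower, shares that also apply to the lists that follow. The list holds activators and inhibitors, so its counts and median give no direction for the pathway. Pdcd4, which encodes a repressor that binds eIF4A and blocks its helicase, fell from 88.0, 103 and 89.5 CPM to 48.9, 49.7 and 51.9 CPM. The groups were well apart (-0.90, SE 0.05, adjusted p = 1.2e-10). Rps6ka1, the kinase RSK1 of the ERK pathway, rose from 157, 166 and 166 CPM to 225, 245 and 235 CPM (0.53, SE 0.04, adjusted p = 2.2e-09). The mTORC1 subunit gene Mlst8 fell (-0.45), and Tsc1, an inhibitor of the pathway, rose (0.22). Among 9 genes for the eIF2α kinases and the phosphatase that reverses them, 2 were higher and 5 lower (median -0.10). Eif2ak3 (PERK) rose from 45.8 ± 1.07 to 55.8 ± 1.09 CPM and Eif2ak4 (GCN2) by 0.14, while Eif2ak1 (HRI) and Eif2ak2 (PKR) both stood at -0.19. The kinase genes thus split, and the other genes called lower in this list encode parts of the phosphatase. The call of Eif2ak4 was lost without IL-4 replicate 3 (0.11, adjusted p = 0.069) or bryostatin 1 replicate 1 (0.12, adjusted p = 0.059) and with DESeq2 (0.14, adjusted p = 0.062). Of 9 accessory initiation proteins 5 were higher and 1 lower (median 0.13), with the helicase gene Ddx3x at 0.20, the small-subunit maturation factor gene Ltv1 at 0.28, the mitochondrial initiation factor gene Mtif3 at 0.20 and Denr, which encodes a recycling and re-initiation factor, at -0.15. Calls were lost for Mtif3 without IL-4 replicate 2 (0.17, adjusted p = 0.066) or bryostatin 1 replicate 1 (0.18, adjusted p = 0.061), and for Denr without bryostatin 1 replicate 1 (-0.11, adjusted p = 0.065).

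**Figure D5:**
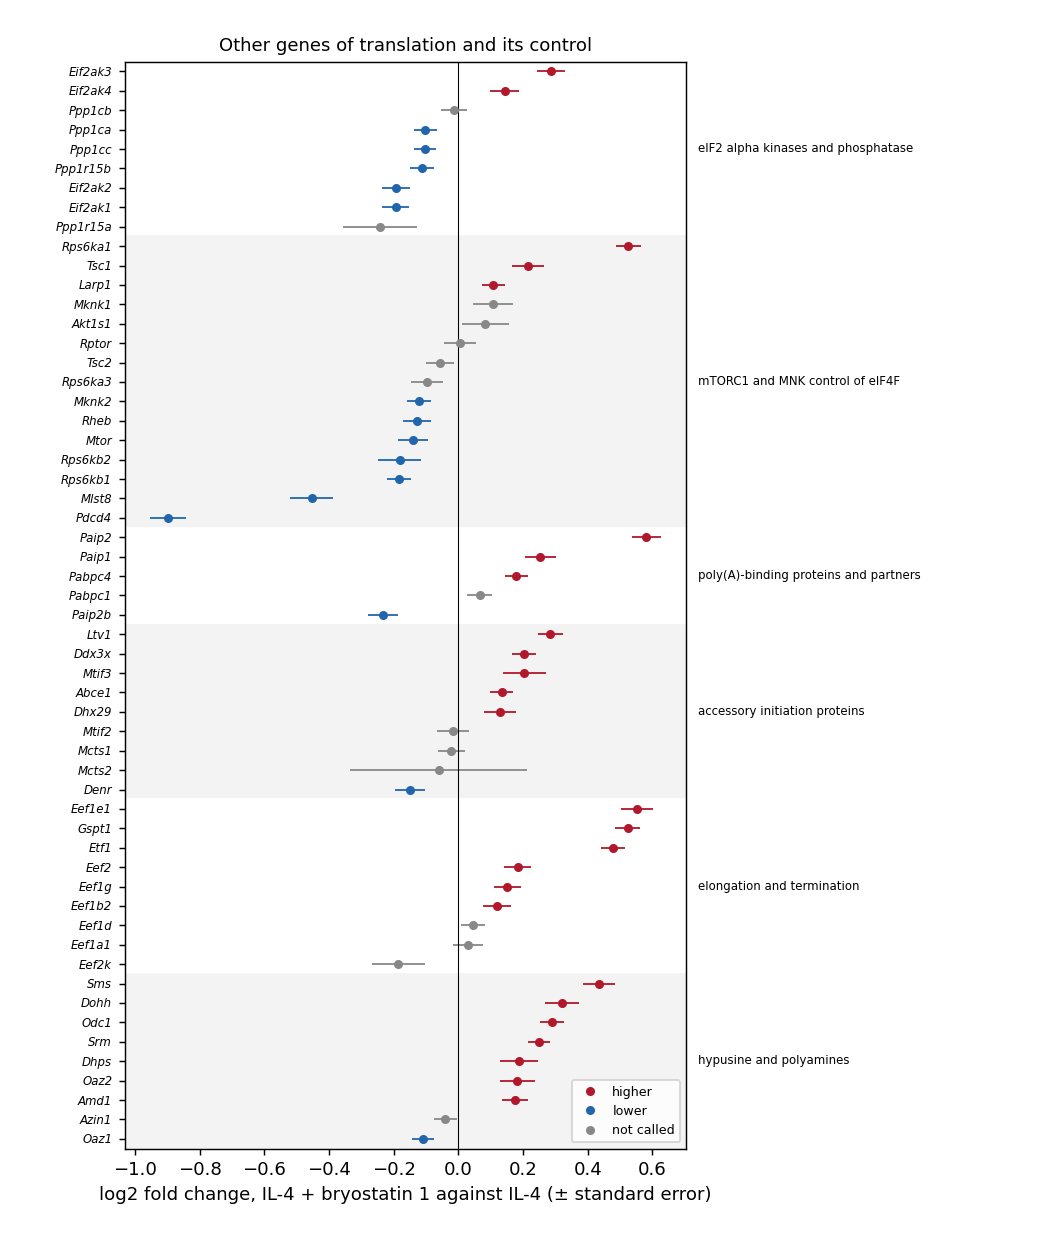
Log2 fold change of IL-4 + bryostatin 1 against IL-4 (horizontal axis) for 56 tested genes of translation and its control, grouped by list. Points are edgeR estimates, bars are ± 1 standard error, and colour gives the call. The lists of elongation and termination (median 0.15) and of hypusine and polyamines (median 0.19) lie mostly above 0. Those of the eIF2α kinases and their phosphatase and of mTORC1 and MNK (median -0.10 each) lie mostly below, though the kinase genes themselves split. Pdcd4 is the lowest at -0.90.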

How the data were processed

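Total RNA of 6 B cell samples (3 per group) was made into directional libraries by the authors. Their processing used cutadapt and sickle for trimming, HISAT2 for mapping, SAMtools for sorting and featureCounts for counting. Of versions, genome build, strand setting and treatment of shared reads, none is given in the sources used here. In the deposited table the authors give counts as whole numbers for 139023 RefSeq transcript rows. Its columns of fold changes, p-values, q-values, ranks and calls, made by the authors with DEGES scaling in TCC and edgeR, were not used.

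For each member the mRNA row with the highest mean was taken, and for every other gene the row of any kind with the highest mean. Rows were not summed, because summing would count a read several times where rows share it. Genes were kept by filterByExpr (minimum count 10, minimum total count 15), scaled by DEGES as rewritten here (TMM, exact test, false discovery rate 0.1, floor 5%, 3 rounds), and tested on all 13863 genes with edgeR's quasi-likelihood test (edgeR 4.0.16, R 4.3.3, no covariate, 4 residual degrees of freedom, Benjamini-Hochberg adjustment, call at 0.05). SE is the size of the log2 fold change over the square root of F. CPM uses the scaled libraries (factors 0.985 to 1.02). Within-library ratios were compared by an exact two-sided permutation test. Levels per kb used GENCODE M21 transcript lengths. Promoter windows came from RefSeq (GRCm38.p6). DESeq2 1.42.0 was an alternative; the others covered scaling, filter, threshold, row per gene, replicate block and each sample left out. Scripts ran in Python 3.11.15 with matplotlib 3.10.9, numpy 2.4.6 and pandas 2.3.3.

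Members and lists were chosen with earlier results of these data known. Some of the cell type markers listed for the check of the cells are not reported here, so the marker sums cover part of those lists. Values in every sample are given for members called with at least 0.5 in log2 size and the largest change of each complex, and for some others chosen after their values were seen; from each related list up to 4 called genes with the largest change are named. Replicates of a group differed by more than sampling noise (chi-square per gene 2.31 to 4.87), and all were kept as separate. In counts simulated for this comparison over 13690 genes, calls were made for 53 of the 65 genes set to change 1.5-fold. They were also made for 63 of the 66 set to 2-fold, 65 of the 65 set to 4-fold and 7 of the 13494 left unchanged. The simulation gave every gene the same dispersion and changed far fewer genes than were called in the data. No change under 1.5-fold was simulated, so it does not show how often the smaller changes of most members would be called.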

Additional observations from a re-analysis of the deposited data

How the results depend on the processing

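Directions and calls of the initiation factor genes were kept in 748 of 784 combinations of gene and alternative (49 genes, 16 alternatives); 18 lost the call (Eif2b5, Eif3e, Eif4e3 and Eif5b), 11 gained it (Eif3j2, Eif4e2 and Eif4g1) and 7 changed sign (Eif2d and Eif5a2, neither called). Eif4ebp1 (1.46 to 1.53), Eif2s2 (0.62 to 0.66), Eif5 (0.44 to 0.49), Eif3c (0.42 to 0.49) and Eif4a2 (-0.45 to -0.36) kept their calls in all 16. Eif2d stood at -0.0034 with TMM, -0.0053 with DESeq2 size factors in edgeR, -0.0051 with DESeq2 and -0.038 to 0.018 with each sample left out, and Eif5a2 at -0.012 to 0.037 with each sample left out. Leaving out 1 sample gave 28 to 32 members called higher and 5 to 6 lower, with a median of 0.16 to 0.20, 21 to 25 related genes higher and 12 to 16 lower, and 3712 to 3998 of all genes higher and 3517 to 3871 lower. With a log2 fold change of at least 0.5 beside the adjusted p, 2 members were higher and 0 lower, 4 related genes higher and 1 lower, and 1625 of all genes higher and 1658 lower. Of the related genes named, 3 lost their call under some alternative, beside single samples left out Eif2ak4 (0.14, adjusted p = 0.062) and Mtif3 (0.20, adjusted p = 0.075) with DESeq2 and Denr (-0.13, adjusted p = 0.053) with summed rows. With an adjusted p under 0.01, 8 related genes were lower. Replicate numbers were not taken as pairs, since same-numbered samples deviated together with correlations of 0.145, 0.0519 and 0.0194; with the replicate block 32 members were higher and 6 lower. The sum of all rows of a gene left the within-library ratios in their direction, and scaling moved the median of all genes by at most 0.03. The lowest tested members by level were Eif3j2, Eif4e3 and Eif5a2.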

Other observations

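Eif4g3 has 56 rows in the table, and 1 of them (NM_001369131.1) stood apart. It held a mean of 439.5 counts, against 3448 to 3575 in the others, and went from 18.6 ± 1.30 to 21.8 ± 2.37 CPM (SD, n = 3), while the row used above went from 168 ± 3.94 to 161 ± 3.23 CPM. No test was run on single rows. Per kilobase of transcript, the eIF3 subunit genes other than Eif3j1 (17.3 CPM per kb) and Eif3j2 (2.00) ran from 137 for Eif3a to 339.5 for Eif3k in the IL-4 samples, and the eIF2 subunit genes stood lower, at 115 for Eif2s2, 75.2 for Eif2s1 and 58.8 for Eif2s3x.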
